A study of Mus musculus with 6 samples.

Results

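SMAD feedback inhibitors are genes whose products restrain signalling from TGFB and BMP receptors, and 10 of them were described here: Smad6, Smad7, Ski, Skil, Smurf1, Smurf2, Pmepa1, Ldlrad4, Tgif1 and Bambi. They were chosen by symbol, each matched a single row, and they make up 10 of the 35688 gene rows of the deposited table. RNA was sequenced from m1102, a mouse line of the epithelium that covers the ovary, in 6 libraries. The first group held 3 libraries of m1102 cells given 10 ng/mL TGFB1 for 4 days, and the second held 3 libraries of m1102 cells left untreated, both grown in medium with serum, ITSS and EGF. Only 1 line and 1 time of exposure were sampled, and the labels do not say whether the libraries came from separately treated cultures, so p-values measure the spread between these libraries, which may be technical. All levels are in TPM as deposited, a scale corrected for transcript length, and the read depth is unknown.

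TGFB1 binds a pair of receptor kinases that phosphorylate SMAD2 and SMAD3, which join SMAD4 and move to the nucleus, while BMP ligands act through SMAD1, SMAD5 and SMAD9. The inhibitors act at successive steps. SMAD7 and SMAD6 are inhibitory SMADs that occupy the receptors, and SMAD6 acts mainly on the BMP branch. BAMBI is a receptor-like membrane protein without a kinase domain. PMEPA1 and LDLRAD4 are related membrane proteins that hold SMAD2 and SMAD3 away from the receptor. SMURF1 and SMURF2 are ubiquitin ligases that mark SMADs and, when brought by an inhibitory SMAD, receptors for degradation. SKI, SKIL and TGIF1 are nuclear corepressors that bind SMAD complexes on DNA. Several of these genes are themselves known targets of SMADs, which closes a negative feedback loop.

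A treated library stood apart from the other two. TGFB1 replicate 1 scored 46.6 on the first principal component of all tested genes, against 20.2 and 18.1 for TGFB1 replicates 2 and 3 and between -29.8 and -27.1 for the untreated libraries. It held the highest treated value for 67.5% of the 1937 genes called higher and the lowest for 73.0% of the 1788 called lower. Some results are given with and without it, and a fold change given only once may also move with it. Among the markers of ovarian surface epithelium, Msln, Upk1b, Wt1, Krt7 and Krt18 were above 99 TPM in every library, whereas Lhx9 and Krt8 stayed under 0.42 TPM. Of the 8 tested markers in that list of 11 genes, 5 were called lower and 1 higher by the limma test described below. The shares over all tested genes were 14.6% lower and 15.8% higher. The summed level of all 11 was 1072 to 1429 TPM with TGFB1 and 2128 to 2236 TPM untreated. Summed levels of markers of other cell types were as follows. The 8 smooth muscle and pericyte genes summed to 102 to 194 TPM with TGFB1 and 22.1 to 28.2 TPM untreated, mostly from Mcam, with Myh11 at or under 0.020 TPM. The 8 theca and stroma genes summed to 108 to 209 TPM with TGFB1 and 308 to 354 TPM untreated, mostly from Star, with Lhcgr listed at 0. The 8 leukocyte genes summed to 8.37 to 11.1 TPM with TGFB1 and 19.4 to 27.2 TPM untreated, mostly from Cd68, with Ptprc under 0.085 TPM. The 8 granulosa genes summed to 97.0 to 104 TPM with TGFB1 and 88.8 to 97.3 TPM untreated, with overlapping ranges and Fshr listed at 0. The 8 endothelial genes summed to 1.92 to 2.42 TPM with TGFB1 and 1.26 to 1.34 TPM untreated. In bulk RNA, fewer cells of a type and less RNA per cell cannot be told apart. The part of these shifts in the results below was not tested.

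Of the 10 inhibitors, 9 passed the abundance filter of a mean of 1 TPM, and 6 of those 9 rose with TGFB1: Pmepa1, Ldlrad4, Tgif1, Skil, Smurf2 and Smurf1. None fell, also at an unadjusted p under 0.05 (0 of 9), a threshold for which the share of all tested genes is not given here. Smad7, Smad6 and Ski did not pass the test. The test was limma on log2(TPM + 1) with Benjamini-Hochberg adjustment over all 12257 tested genes and a threshold of 0.05. Under the same rule 15.8% of all tested genes were called higher and 14.6% lower. All TGFB1 values lay above all untreated ones for 7 of the 9 and below them for 1, Smad6, against 26.3% and 23.6% of all tested genes. The median log2 fold change was 0.41 over the 9 tested inhibitors and 0.02 over all tested genes. The count of inhibitors called higher was 7 without TGFB1 replicate 1, 4 or 5 with any other library left out, and between 5 and 7 under the other settings. Of all calls, 52.0% were upward on the deposited scale and 62.8% when each library was rescaled with its mitochondrial genes and the 20 most abundant genes set aside.

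**Figure D1:**
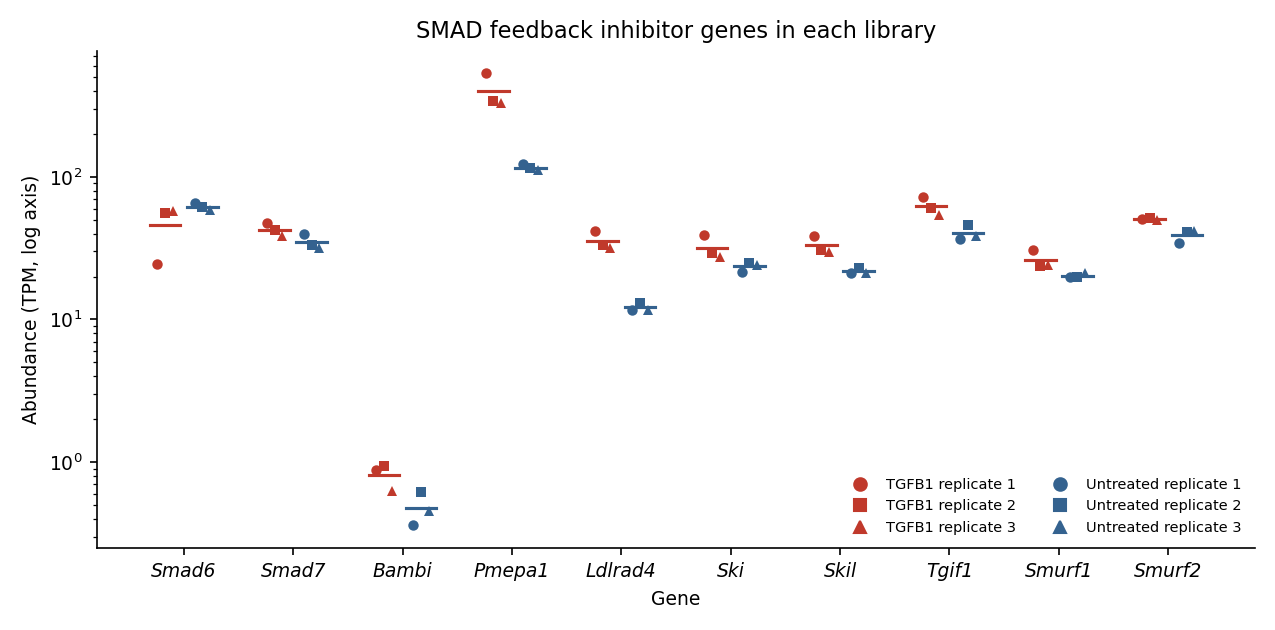
Abundance in TPM (log axis) of the 10 inhibitor genes in each of the 3 TGFB1 libraries (red, left) and 3 untreated libraries (blue, right); symbols mark the replicate and bars the group means. Pmepa1 is the most abundant member in both groups, and the TGFB1 replicate 1 value of Smad6, 24.5 TPM, lies apart from the other 5.

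The membrane scaffolds showed the largest changes. Pmepa1 stood at 532, 339 and 330 TPM in the TGFB1 libraries, against 122, 115 and 111 TPM in the untreated ones. Every treated value was more than 200 TPM above every untreated one, with TGFB1 replicate 1 the highest. The means were 400 ± 114 TPM with TGFB1 and 116 ± 5.72 TPM untreated (SD, n = 3 each), a ratio of 3.45, and the log2 fold change was 1.74 (SE 0.179, limma adjusted p = 0.00122). Without TGFB1 replicate 1 it was 1.52. Pmepa1 lies on chromosome 2 at 173224458 to 173276533, minus strand (GRCm38, GENCODE M21, as for all gene positions here), and shares no 31-base stretch of its transcripts with another gene.

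Ldlrad4 stood at 41.7, 33.1 and 31.9 TPM in the TGFB1 libraries, against 11.7, 13.1 and 11.7 TPM in the untreated ones. The groups were far apart, and TGFB1 replicate 1 was again the highest. Its means were 35.6 ± 5.35 TPM with TGFB1 and 12.2 ± 0.784 TPM untreated (SD, n = 3 each), a ratio of 2.93 (log2 fold change 1.47, SE 0.113, limma adjusted p = 0.000494). Ldlrad4 lies on chromosome 18 at 67933257 to 68268630, plus strand, and overlaps Fam210a, Mir7219, AC108812.1 and AC135016.1 on the opposite strand. Of its 31-base stretches, 50.3% also occur in other genes when orientation is ignored and 0.0% when it is kept, so its level is uncertain if the authors did not use strand. Fam210a itself stood at 9.13, 8.54 and 9.99 TPM with TGFB1, against 12.9, 10.9 and 10.0 TPM untreated, and did not pass (log2 fold change -0.26, limma adjusted p = 0.118). If strand was not used, the level of Fam210a carries the same uncertainty, so it cannot show how far the overlap bears on the Ldlrad4 rise. That was not tested.

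Because TPM values are per length, the levels of related genes can be set against each other within a library. Pmepa1 was 12.8, 10.2 and 10.3 times as abundant as Ldlrad4 in the TGFB1 libraries, against 10.4, 8.78 and 9.52 times in the untreated ones. The groups overlapped, since TGFB1 replicates 2 and 3 lay just under untreated replicate 1. The log2 ratio was higher by 0.21 with TGFB1 (exact two-sided permutation p = 0.3, and 0.4 adjusted over the 4 pairs tested), in a design of 3 against 3 whose smallest possible p is 0.1. Pmepa1 alone made up 60.6%, 50.9% and 51.2% of the summed TPM of the 10 inhibitors in the TGFB1 libraries, against 32.8%, 30.3% and 30.8% in the untreated ones. The other 9 together summed to 346, 328 and 314 TPM with TGFB1 and 251, 264 and 249 TPM untreated.

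The genes whose 6 library values moved most like those of Pmepa1 were Gpc1, a glypican gene, Ncam1, a cell adhesion gene, and Thbs1, the thrombospondin-1 gene. Likeness was the Euclidean distance between log2(TPM + 1) values less their untreated means, and it was 0.13 for Gpc1, 0.16 for Ncam1 and 0.22 for Thbs1. Gpc1 stood at 25.2, 16.6 and 14.5 TPM with TGFB1, against 5.14, 4.39 and 4.48 TPM untreated.

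Neither inhibitory SMAD gene passed the test. Smad7 stood at 47.4, 42.4 and 38.4 TPM in the TGFB1 libraries, against 39.6, 33.4 and 31.7 TPM in the untreated ones. The groups overlapped, with TGFB1 replicate 3 under untreated replicate 1. Its means were 42.7 ± 4.52 TPM with TGFB1 and 34.9 ± 4.18 TPM untreated (SD, n = 3 each), a ratio of 1.22, and it did not pass (log2 fold change 0.29, SE 0.111, limma adjusted p = 0.0949). With the replicate number as a block in the fit it was called (limma adjusted p = 0.0243). It lies on chromosome 18 at 75367529 to 75395935, plus strand.

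Smad6 stood at 24.5, 55.8 and 57.7 TPM in the TGFB1 libraries, against 65.2, 61.8 and 58.6 TPM in the untreated ones. TGFB1 replicate 1 was far below all the others, while TGFB1 replicates 2 and 3 lay just under the lowest untreated library. The means were 46.0 ± 18.6 TPM with TGFB1 and 61.9 ± 3.33 TPM untreated (SD, n = 3 each), and it did not pass (log2 fold change -0.51, SE 0.306, limma adjusted p = 0.246). Without TGFB1 replicate 1 the log2 fold change was -0.12. Smad6 lies on chromosome 9 at 63953076 to 64022059, minus strand, and none of its 31-base stretches is shared.

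Smad7 was 1.93, 0.760 and 0.666 times as abundant as Smad6 in the TGFB1 libraries, against 0.608, 0.539 and 0.541 times in the untreated ones. All 3 treated ratios were above all 3 untreated ones, and in TGFB1 replicate 1 alone Smad7 exceeded Smad6. The log2 ratio was higher by 0.82 with TGFB1 (exact two-sided permutation p = 0.1, the smallest this design allows, and 0.4 adjusted over the 4 pairs), and by 0.34 without TGFB1 replicate 1. The sum of both was 72.0, 98.2 and 96.1 TPM with TGFB1, against 105, 95.2 and 90.3 TPM untreated. Set against the summed receptor-regulated SMADs (Smad1, Smad2, Smad3, Smad5 and Smad9), it came to 0.634, 0.800 and 0.787 with TGFB1 and 0.969, 0.848 and 0.859 untreated. That ratio, chosen after the values were seen, was lower in every treated library than in every untreated one, by the most in TGFB1 replicate 1.

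**Figure D2:**
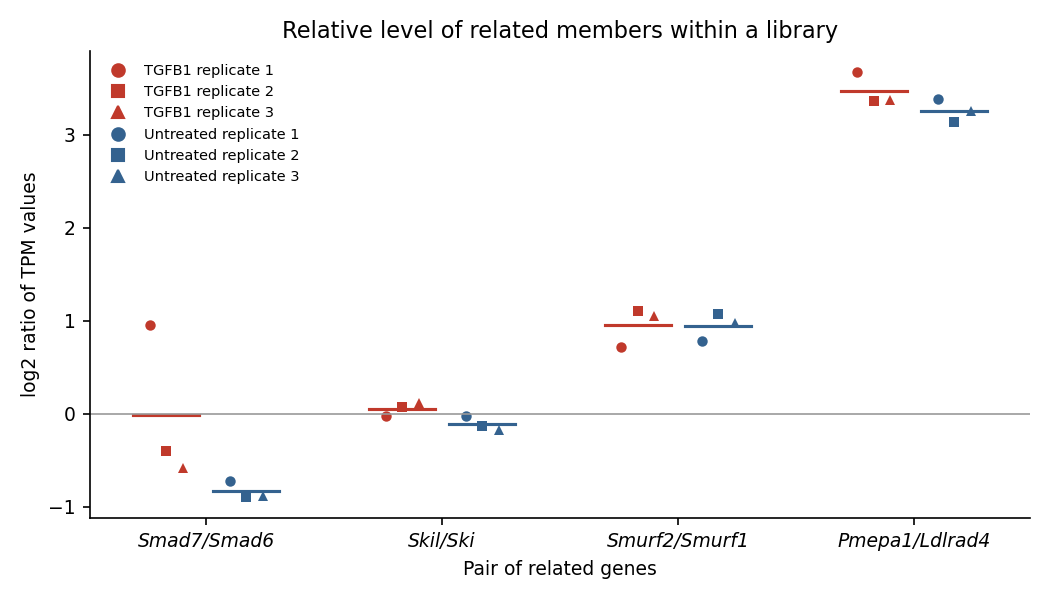
Log2 ratio of the TPM values of 4 pairs of related inhibitor genes within each library, TGFB1 in red on the left and untreated in blue on the right, with group means as bars. The groups are apart for Smad7 over Smad6, where TGFB1 replicate 1 lies at 0.95, and overlap for the other 3 pairs.

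Bambi was nearly silent, at 0.885, 0.933 and 0.626 TPM in the TGFB1 libraries, against 0.360, 0.619 and 0.450 TPM in the untreated ones. The lowest treated value was barely above the highest untreated one. The means were 0.815 ± 0.165 TPM with TGFB1 and 0.477 ± 0.131 TPM untreated (SD, n = 3 each), and the gene was under the filter. When all genes above 0 were tested it did not pass (limma adjusted p = 0.137). It lies on chromosome 18 at 3507923 to 3516404, plus strand.

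Of the nuclear corepressors, Tgif1 and Skil rose and Ski did not pass. Tgif1, which encodes a homeodomain protein, stood at 72.4, 60.6 and 54.0 TPM in the TGFB1 libraries, against 36.9, 45.8 and 38.6 TPM in the untreated ones. The groups were apart, with TGFB1 replicate 1 the highest. The means were 62.3 ± 9.32 TPM with TGFB1 and 40.4 ± 4.76 TPM untreated (SD, n = 3 each), a ratio of 1.54 (log2 fold change 0.61, SE 0.128, limma adjusted p = 0.0138). The call was lost without untreated replicate 1 (limma adjusted p = 0.0526) or untreated replicate 3 (limma adjusted p = 0.0563). Tgif1 lies on chromosome 17 at 70844205 to 70853546, minus strand.

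Skil, also known as SnoN, stood at 38.6, 30.6 and 29.9 TPM in the TGFB1 libraries, against 21.3, 22.8 and 21.3 TPM in the untreated ones. Each treated value exceeded each untreated one. The means were 33.0 ± 4.80 TPM with TGFB1 and 21.8 ± 0.851 TPM untreated (SD, n = 3 each), a ratio of 1.51 (log2 fold change 0.57, SE 0.106, limma adjusted p = 0.00899). The call held with each library left out, with an adjusted p of at most 0.0411. Skil lies on chromosome 3 at 31095058 to 31122577, plus strand.

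Ski, the founding member of that family, stood at 39.2, 29.1 and 27.6 TPM in the TGFB1 libraries, against 21.7, 24.9 and 24.1 TPM in the untreated ones. The groups did not overlap, but the treated values spread widely. The means were 32.0 ± 6.35 TPM with TGFB1 and 23.6 ± 1.71 TPM untreated (SD, n = 3 each), and the log2 fold change was 0.41 (SE 0.137, limma adjusted p = 0.0629). Without TGFB1 replicate 1 the value was smaller, at 0.26, and passed (limma adjusted p = 0.0489). It also passed when mitochondrial and abundant genes were set aside before rescaling (0.46, limma adjusted p = 0.0403). Ski lies on chromosome 4 at 155154075 to 155222592, minus strand.

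Skil was 0.982, 1.05 and 1.08 times as abundant as Ski in the TGFB1 libraries, against 0.986, 0.914 and 0.885 times in the untreated ones. The groups overlapped, and the log2 ratio was higher by 0.16 (exact two-sided permutation p = 0.2, and 0.4 adjusted over the 4 pairs). The pair stayed near equal abundance in all 6 libraries.

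Both ubiquitin ligase genes were called higher, with small changes. Smurf2 stood at 50.8, 51.3 and 50.0 TPM in the TGFB1 libraries, against 34.2, 41.3 and 41.9 TPM in the untreated ones. It was the called member in which TGFB1 replicate 1 was not the highest treated library, and its treated values were close together. The means were 50.7 ± 0.673 TPM with TGFB1 and 39.2 ± 4.27 TPM untreated (SD, n = 3 each), a ratio of 1.29 (log2 fold change 0.37, SE 0.0877, limma adjusted p = 0.0211). The call was lost without TGFB1 replicate 2 (limma adjusted p = 0.0635) or TGFB1 replicate 3 (limma adjusted p = 0.052). Smurf2 lies on chromosome 11 at 106820066 to 106920715, minus strand.

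Smurf1 stood at 30.9, 23.9 and 24.1 TPM in the TGFB1 libraries, against 19.9, 19.7 and 21.3 TPM in the untreated ones. The groups did not overlap, and TGFB1 replicate 1 was the highest. The means were 26.3 ± 4.00 TPM with TGFB1 and 20.3 ± 0.857 TPM untreated (SD, n = 3 each), a ratio of 1.30, and the call was at the threshold (log2 fold change 0.35, SE 0.109, limma adjusted p = 0.0499). Without TGFB1 replicate 1 the log2 fold change was 0.23 and the gene was still called (limma adjusted p = 0.0391). It was lost without any other library (limma adjusted p up to 0.13) and with median-of-ratios scaling, quantile normalization, a pseudocount of 5, no trend or no filter. Smurf1 lies on chromosome 5 at 144876495 to 144965847, minus strand.

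Smurf2 was 1.64, 2.15 and 2.07 times as abundant as Smurf1 in the TGFB1 libraries, against 1.72, 2.10 and 1.97 times in the untreated ones. The groups overlapped, and the log2 ratio differed by 0.01 (exact two-sided permutation p = 0.9, also adjusted over the 4 pairs). The sign of that difference turned without TGFB1 replicate 2, TGFB1 replicate 3 or untreated replicate 1.

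**Figure D3:**
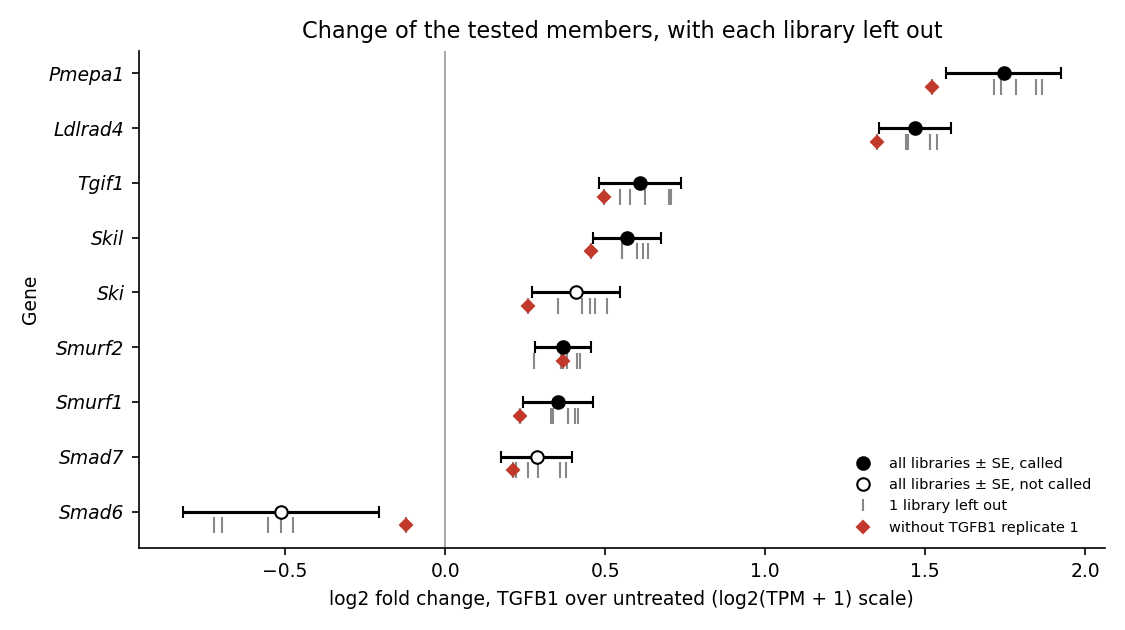
Log2 fold change (TGFB1 over untreated, x axis) of the 9 tested inhibitor genes with its standard error, filled where called by limma; grey ticks show the value with 1 library left out and red diamonds that without TGFB1 replicate 1. Pmepa1 and Ldlrad4, at 1.74 and 1.47, lie apart from the other called genes, which run from 0.35 to 0.61, and Smad6 moves to -0.12 without TGFB1 replicate 1.

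The order of the levels differed between the groups. With TGFB1 the members ran from Pmepa1 through Tgif1, Smurf2, Smad6, Smad7, Ldlrad4, Skil, Ski and Smurf1 to Bambi. Untreated, they ran from Pmepa1 through Smad6, Tgif1, Smurf2, Smad7, Ski, Skil, Smurf1 and Ldlrad4 to Bambi. In the TGFB1 libraries the ranges of all neighbours from Smurf2 to Smurf1 overlapped, so that stretch has no firm order. In the untreated libraries Tgif1, Smurf2 and Smad7 overlapped as neighbours, as did Ski and Skil. Ldlrad4 was below the whole range of Smurf1 in the untreated libraries and above it in the TGFB1 libraries.

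Promoter windows of RefSeq (GRCm38.p6), 300 bases each with 250 before the start site, were used for 5 members: Smad6, Ski, Smurf1, Smurf2 and Tgif1, the last with 5 start sites. Smad7, Ldlrad4, Bambi, Skil and Pmepa1 were not searched, so whether their promoters hold the letters below is not known here. They were searched on both strands for GTCTAGAC, the palindromic SMAD binding element, for CAGACA, which holds the CAGA core, and for GGCGCC, a GC-rich form. These letters do not overlap one another in the windows. Of 32851 windows of all genes, 0.213% held GTCTAGAC, 21.0% held CAGACA and 11.9% held GGCGCC. Among these members the palindrome was found in Smad6, where it spans the start site, with its first base 4 bases before it. CAGACA was found in Smurf1 (193 bases before the start, on the opposite strand) and in Smurf2 (27 bases after the first transcribed base). It was also in 2 Tgif1 windows (201 bases before the start, and 60 bases before it on the opposite strand). Ski held 1 GGCGCC and Smurf2 held 2. A match describes the letters and not binding. The stretches below show the palindrome of Smad6 and the CAGACA of a pair of members that rose, from 250 bases before the start to 10 bases after it, 5′ to 3′, with the matches in capitals.
Smad6 (chr9:64022050-64022309, minus strand): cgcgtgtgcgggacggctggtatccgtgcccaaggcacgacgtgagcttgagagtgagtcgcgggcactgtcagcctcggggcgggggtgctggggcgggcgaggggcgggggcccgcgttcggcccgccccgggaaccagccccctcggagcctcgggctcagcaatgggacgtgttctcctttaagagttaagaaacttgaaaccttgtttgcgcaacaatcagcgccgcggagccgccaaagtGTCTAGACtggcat
Tgif1 (chr17:70853523-70853782, minus strand): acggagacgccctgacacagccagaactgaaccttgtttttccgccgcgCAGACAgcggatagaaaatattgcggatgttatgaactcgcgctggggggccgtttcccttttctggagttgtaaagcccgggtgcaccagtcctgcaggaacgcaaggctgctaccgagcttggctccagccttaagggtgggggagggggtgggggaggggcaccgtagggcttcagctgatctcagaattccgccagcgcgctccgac
Smurf1 (chr5:144965821-144966080, minus strand): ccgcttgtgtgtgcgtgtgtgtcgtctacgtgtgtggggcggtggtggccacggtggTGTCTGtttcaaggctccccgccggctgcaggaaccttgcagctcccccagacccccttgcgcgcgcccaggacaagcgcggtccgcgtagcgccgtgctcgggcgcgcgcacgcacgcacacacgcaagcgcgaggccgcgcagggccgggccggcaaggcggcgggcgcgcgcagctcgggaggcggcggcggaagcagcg

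All 5 tested BMP target genes (Id1, Id2, Id3, Id4 and Msx1) were lowest in TGFB1 replicate 1. That library held the lowest treated value for 73.0% of all genes called lower, but of the 5 only Id1 and Id4 were called lower. The share over all tested genes is not given here. Some other genes of the BMP branch were not lowest in TGFB1 replicate 1. Gdf6, Bmpr2 and Acvr1 were highest there, and Bmp6 and Smad5 lay above all untreated values. Id1, a helix-loop-helix inhibitor gene and classic BMP target, stood at 213, 402 and 395 TPM in the TGFB1 libraries, against 571, 524 and 556 TPM in the untreated ones. As for Smad6, all 3 treated values lay below all untreated ones, lowest in TGFB1 replicate 1. On the log2(TPM + 1) scale, TGFB1 replicates 2 and 3 lay at -0.45 and -0.47 from the untreated mean for Id1, against -0.15 and -0.10 for Smad6. Id1 was called lower (log2 fold change -0.76, limma adjusted p = 0.0487, and -0.46 without TGFB1 replicate 1, limma adjusted p = 0.000973). It was no longer called when an untreated library was left out, with no filter, no trend, quantile normalization or rescaling (limma adjusted p up to 0.129). Id4 stood at 1.66, 5.11 and 4.91 TPM with TGFB1, against 9.97, 11.2 and 11.7 TPM untreated, and fell (-1.38, limma adjusted p = 0.0181, and -0.87 with a pseudocount of 5), a call lost without any one untreated library and with no filter (limma adjusted p up to 0.0653). Of 10 BMP target genes 5 were tested, and 2 fell and none rose by limma, against 14.6% and 15.8% of all tested genes. The median log2 fold change of the 5 was -0.76. At an unadjusted p under 0.05, 4 were lower and 0 higher, and the share of all tested genes at that threshold is not given here. Id3 stood at 69.3, 210 and 213 TPM with TGFB1 and between 288 and 302 TPM untreated, and did not pass (log2 fold change -1.02, limma adjusted p = 0.104), but it was called without TGFB1 replicate 1 (-0.49, limma adjusted p = 0.000525). Id3 was picked, like Bmp4, after its values were seen: the ligand gene Bmp4 stood at 30.0, 65.9 and 85.5 TPM with TGFB1 and 100 to 128 TPM untreated (log2 fold change -1.04, limma adjusted p = 0.0638). It was called without TGFB1 replicate 1 (-0.61, limma adjusted p = 0.016) and without TGFB1 replicate 3 (-1.35, limma adjusted p = 0.0282).

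**Figure D4:**
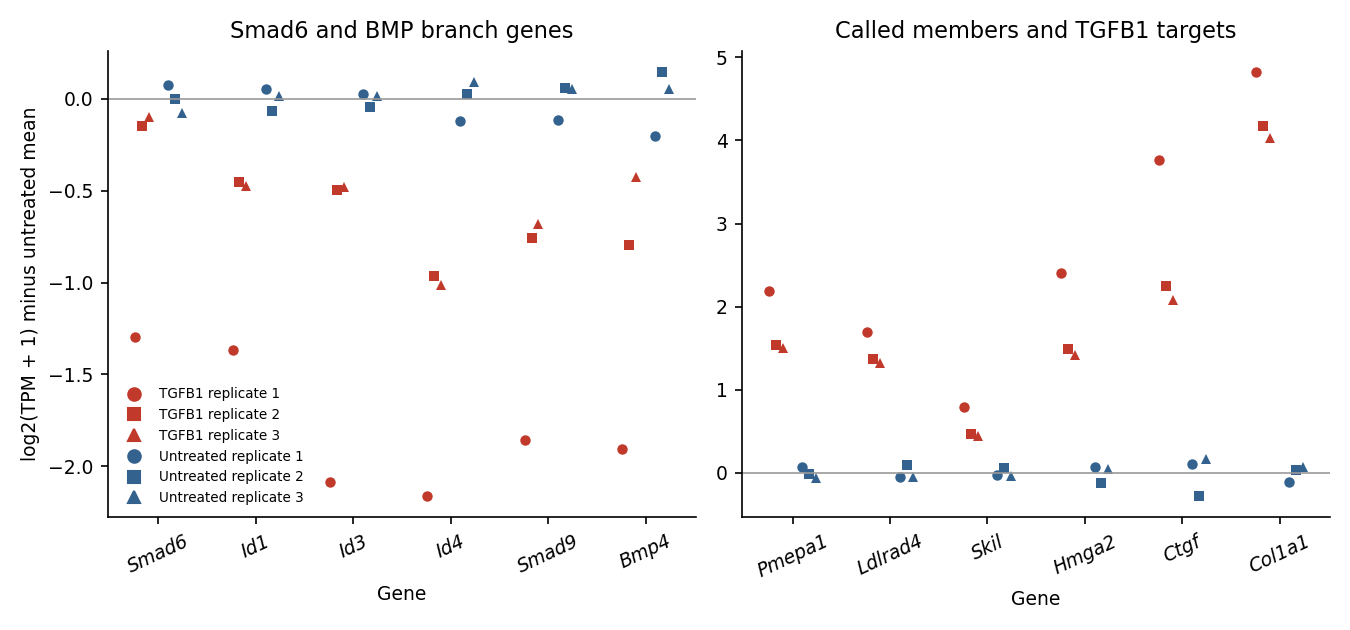
Level of each library as log2(TPM + 1) minus the untreated mean (y axis) for Smad6 with some BMP branch genes (left panel) and for some called inhibitors and TGFB1 targets (right panel), TGFB1 in red and untreated in blue. The BMP branch genes shown were all lower on average with TGFB1, and the targets shown were all higher. Genes that went the other way are not shown, such as Gdf6 (log2 fold change 2.79) and Bmp6 (0.61) of the BMP branch and the target Ltbp2 (-0.62). In TGFB1 replicate 1 Smad6 lies at -1.30 and Id3 at -2.08, while TGFB1 replicates 2 and 3 of Smad6 lie at -0.15 and -0.10; Ctgf lies at 3.77 in TGFB1 replicate 1 and at 2.25 and 2.09 in replicates 2 and 3.

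Genes with values nearest to those of Smad6, a search added after its values were seen, were Irgm2, Grb14 and Abhd11os, at distances of 0.13, 0.18 and 0.21. Grb14, an adaptor of receptor tyrosine kinases, stood at 13.1, 31.1 and 33.4 TPM with TGFB1, against 34.7, 37.5 and 35.6 TPM untreated, and like Smad6 it did not pass (limma adjusted p = 0.225).

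Among the SMADs that the inhibitors act on, 3 of 6 rose and 1 fell; here and in the lists that follow, the counts stand against the 15.8% of all tested genes called higher and 14.6% called lower. Smad3 stood at 16.5, 20.4 and 19.6 TPM with TGFB1, against 18.1, 20.6 and 18.7 TPM untreated, and Smad4 at 57.2, 65.2 and 62.6 TPM with TGFB1, against 57.7, 60.3 and 58.8 TPM untreated. The groups overlapped for both, and neither passed (limma adjusted p = 0.879 and 0.506). Smad2 (log2 fold change 0.19, limma adjusted p = 0.0493), Smad1 (0.36, limma adjusted p = 0.0297) and Smad5 (0.38, limma adjusted p = 0.0146) were called higher. Smad2 lost its call without any one library (limma adjusted p up to 0.169) and with a pseudocount of 0.1, no filter, median-of-ratios scaling or no trend (limma adjusted p 0.0502 to 0.0759), Smad1 with no filter or without any one library except TGFB1 replicate 1 (up to 0.0929) and Smad5 without TGFB1 replicate 2 or untreated replicate 1 or 3 (up to 0.0612). Smad9 stood at 1.95, 5.32 and 5.66 TPM with TGFB1, against 8.89, 10.2 and 10.1 TPM untreated, and fell (-1.10, limma adjusted p = 0.0344), by less without TGFB1 replicate 1 (-0.72) or with a pseudocount of 5 (-0.68), a call lost with no filter or without any one untreated library (up to 0.101).

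Upstream, the ligand gene Tgfb1 stood at 41.0, 39.6 and 40.0 TPM with TGFB1, against 35.4, 37.4 and 39.4 TPM untreated, and did not pass (limma adjusted p = 0.268). Of the 6 tested TGFB branch ligand genes 2 rose, Gdf11 (log2 fold change 0.71) and Inhbb (0.31, a call lost without TGFB1 replicate 2), and of the 3 tested BMP branch ligand genes 2 rose, Gdf6 (2.79) and Bmp6 (0.61). Of 12 tested receptor genes 4 rose and 2 fell. The type II receptor gene Tgfbr2 stood at 153, 105 and 101 TPM with TGFB1, against 66.2, 69.8 and 70.7 TPM untreated, and rose (0.77, limma adjusted p = 0.0115), while the type I receptor gene Tgfbr1 was between 19.7 and 21.4 TPM in all 6 libraries (limma adjusted p = 0.886). Acvrl1, a type I receptor gene, rose (1.20, and 0.68 with a pseudocount of 5), and the coreceptor gene Tgfbr3 (-2.40) and the anti-Müllerian hormone receptor gene Amhr2 (-2.55) fell. Without TGFB1 replicate 1, Tgfbr3 was at -1.98 and Amhr2 at -1.91.

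Of 18 tested genes entered as other negative regulators, 3 rose, a share near that of all tested genes, and 5 fell (2 or 3 with no filter or without any one untreated library), with a median log2 fold change of -0.05. The phosphatase genes Ctdspl (-1.13, and -0.81 without TGFB1 replicate 1), Ctdsp2 (-0.58, and -0.40 without that library) and Ctdsp1 (-0.55) fell. Their products remove phosphates from SMADs. Whether that inhibits signalling was not tested, so their fall is not read as a loss of inhibition. Fkbp1a (0.50), which encodes the receptor-binding immunophilin FKBP12, rose. The Ctdspl and Ctdsp2 calls were lost without any one untreated library and with no filter (limma adjusted p up to 0.104). Tgif2, the relative of Tgif1, stood at 7.48, 9.41 and 8.79 TPM with TGFB1, against 7.70, 6.77 and 7.02 TPM untreated. It did not pass (limma adjusted p = 0.153), except without TGFB1 replicate 1 (limma adjusted p = 0.0458), and 70.4% of its 31-base stretches are shared with other genes. Among partners of the corepressors, the deacetylase gene Hdac1 rose (0.43), although 40.0% of its stretches are shared. Of 7 tested secreted antagonists 2 rose, Fstl1 (1.42) and Bgn (0.82), and 1 fell, the decorin gene Dcn (-1.14).

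Of 11 tested genes entered as acting on the inhibitors or in favour of signalling, 1 rose and 1 fell. Rnf111, the ligase known as Arkadia that degrades SMAD7, SKI and SKIL, stood at 23.8, 23.8 and 25.4 TPM with TGFB1, against 22.8, 22.7 and 22.0 TPM untreated, and did not pass (limma adjusted p = 0.222). Rlim, a ligase gene, rose (0.29), a call lost without TGFB1 replicate 2 or 3 or untreated replicate 1 or 3 (limma adjusted p up to 0.0815). The gene that fell, Trap1 (-0.33), matched the list by symbol but encodes a mitochondrial chaperone.

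The direct TGFB1 targets set a scale for the inhibitors. Of 16 tested 9 rose and 1 fell, with a median log2 fold change of 0.86, against 0.41 for the 9 inhibitors. Ctgf, the connective tissue growth factor gene, stood at 1282, 445 and 398 TPM with TGFB1, against 101, 76.5 and 105 TPM untreated, and rose (log2 fold change 2.70, limma adjusted p = 0.00512), with 19.7% of its stretches shared. Col1a1 (4.35) and Hmga2 (1.77) rose too. Without TGFB1 replicate 1, Ctgf, Col1a1 and Hmga2 were at 2.17, 4.11 and 1.45. TGFB1 replicate 1 was the highest of the treated libraries for these 3 genes and for 5 of the 6 inhibitors called higher. The share over all 1937 genes called higher was 67.5%.

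**Figure D5:**
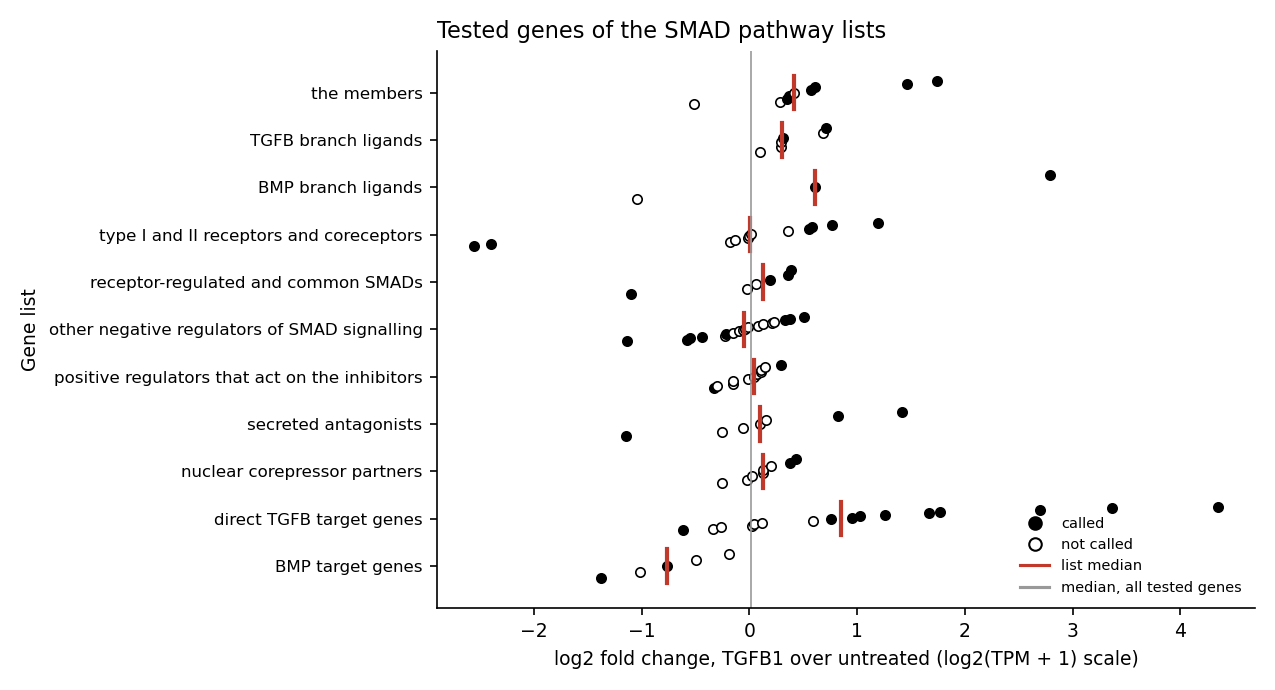
Log2 fold change (TGFB1 over untreated, x axis) of each tested gene of the inhibitors and of 10 other lists of the SMAD pathway; filled points were called by limma, red bars are list medians and the grey line is the median of all tested genes, 0.02. The inhibitors have a median of 0.41, the direct targets of 0.86 and the BMP targets of -0.76.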

How the data were processed

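Poly(A)-selected, strand-marked libraries were sequenced, per the labels' protocols. The deposited table holds 1 TPM-scale signal value per gene and library. Column totals ran from 983434 to 1026702, so these are not plain TPM, and no source used here gives the rescaling step. GRCm38, kallisto 0.44.0 and sleuth 0.30.0 appear, without roles, among the submitters' processing notes. Strand use is likewise not given in the sources. Columns were tied to samples by group and replicate number. Read counts were not used here, so depth is unknown and counting error cannot be stated.

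The 12257 genes whose mean reached 1 TPM were fitted as log2(TPM + 1) with limma 3.58.1 in R 4.3.3, with an intensity trend, two-sided, adjusted by Benjamini-Hochberg over all tested genes. Fold changes on this scale understate those of low genes. The steps were tested on simulated data. Paired log2 ratios used exact permutation tests in Python 3.11.15. Shared 31-base stretches were counted in GENCODE M21 transcripts.

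The members and lists were chosen with earlier results of these data known. Named genes are all 10 members, fixed SMAD, ligand and receptor genes, up to 4 called genes with the largest change of each list, and the 3 genes nearest to the member with the largest rise. No member was called lower. Some genes of the lists are not reported here. Other pseudocounts, filters, scalings, a fit without the trend, a replicate block and leaving out each library were alternatives.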

Additional observations from a re-analysis of the deposited data

How the results depend on the processing

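Pmepa1, Ldlrad4 and Skil were called higher, and Smad6 was not called, under every alternative run. With 1 library left out, the genes called higher numbered 1121 to 1992 and those called lower 915 to 1951, and the called lower genes of the pathway lists, 13 in all, numbered 6 to 16 (7 with no filter). Log2 fold changes then ran from 0.50 to 0.70 for Tgif1, 0.28 to 0.42 for Smurf2, 0.23 to 0.41 for Smurf1 and 0.26 to 0.50 for Ski, and the change of the Smurf2 to Smurf1 log2 ratio from -0.067 to 0.13. Smurf1 lost its call with a pseudocount of 5 (0.30), no filter (0.35), median-of-ratios scaling (0.33), quantile normalization (0.33) and no trend (0.35), and Ski gained one after rescaling without mitochondrial and abundant genes (0.46); the cause was not tested. Smad3 and Tgfbr1, neither called, turned sign: Smad3 was at 0.024 after rescaling and -0.02 as deposited (-0.080 to 0.063 with 1 library left out), and Tgfbr1 at -0.00702 with median-of-ratios scaling and -0.00319 with quantile normalization (-0.0084 to 0.050 with 1 library left out).

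Both groups carry the replicate numbers 1 to 3, and whether these numbers pair the libraries is unknown. Deviations from the group means correlated across genes at 0.198, 0.153 and -0.038 for the same numbers. TGFB1 replicates 1 and 2 correlated best with the untreated library of the same number, and TGFB1 replicate 3 with untreated replicate 2 (0.184). These correlations cannot decide whether the libraries were paired. With a replicate block 1906 genes were higher and 1924 lower, Smad7 was called (log2 fold change 0.29, limma adjusted p = 0.0243), Smurf1 was not (0.35, limma adjusted p = 0.0601), Bmp4 was (limma adjusted p = 0.0276), Smad2 was not (limma adjusted p = 0.0673), and 6 members were higher.

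Depth is unknown, which limits what can be said of Bambi, whose level is under 1 TPM.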
